A study of Mus musculus with 12 samples.

Results

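The collagen genes of the mouse hippocampus were taken as every gene whose symbol is Col, a type number, the letter a and a chain number, with at least 100 UMIs (unique molecular identifiers, each counting 1 captured RNA molecule) over all 12 libraries. All 44 symbols of that form passed, out of 32285 genes, and every one had at least 1 UMI in each library. Their totals ran from 271 UMIs for Col10a1 to 390090 for Col25a1, and 1033875 in sum. The study sequenced single nuclei, sorted by flow cytometry, with the 10x Genomics 3′ v3 chemistry, taking the left hippocampus of each of 12 mice, all female. The 3xTg-AD mice, a model of Alzheimer's disease, carried the transgenes Tg(APPSwe,tauP301L)1Lfa and, at the mouse presenilin 1 gene, the Psen1tm1Mpm allele, on a B6;129 background, and the controls were wild-type (WT) littermates. Both genotypes were sampled at 6 and at 12 months of age, with 3 mice in each of the 4 groups and 1 library for each mouse. All mice were anesthetized with Avertin and perfused with PBS, and the hippocampi were snap-frozen. Libraries are named here by their genotype, age and replicate number, which runs from 1 to 12 over the series.

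Collagens are triple-helical proteins of the extracellular matrix, built from 3 chains, which in some types are products of different genes and in others copies of the product of a single gene. Fibrillar collagens form the fibrils of connective tissue, type IV collagens form the mesh of basement membranes, and smaller families decorate fibrils, make short-chain networks or span the cell membrane. In the brain, fibrillar collagens are known mostly from the meninges and the larger vessels, while type IV collagens surround vessels and line the pial surface.

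Nuclei were assigned to cell classes by counting how many distinct marker genes of each class had at least 1 UMI, with no collagen among the markers. Of 184956 nuclei retained, 2391 were fibroblast-like (52 to 307 in a library), 757 pericyte-like (39 to 86), 628 endothelium-like (32 to 76), 1733 microglia-like, 902 choroid plexus-like and 558 ependymal-like. The larger classes were 18080 astrocyte-like, 28680 oligodendrocyte-like, 4680 oligodendrocyte precursor cell (OPC)-like, 35355 excitatory neuron-like and 47830 inhibitory neuron-like nuclei. Within the neurons, gates for dentate granule, CA1, thalamic, habenular, striatal medium spiny and Sst interneuron markers were applied, so that nuclei of these subtypes can also stand in the excitatory or inhibitory class. Thalamic, habenular and striatal markers are not those of hippocampal neurons. In each non-neuronal class 6 of 6 check markers that the gate had not used were at least 2-fold above the other classes (choroid plexus-like 4 of 4). All check markers of the neuron subtypes used were at least 2-fold above other neurons, but a subtype was kept only if most of them were. Gates for CA3 and CA2, layer 6 corticothalamic, Pvalb, Vip, Lamp5 and Cajal-Retzius markers were also run. They were dropped for their check markers, for few nuclei or for the share of nuclei at the cut. Of the fibroblast-like nuclei, 44.5% sat exactly at the smallest number of markers accepted, and of the Sst interneuron-like nuclei 81.2% did. This share was 67.1% in CA1, 60.2% in habenular, 55.8% in dentate granule, 38.9% in striatal medium spiny and 31.4% in thalamic neuron-like nuclei. Library totals ran from 79177051 to 128323908 UMIs, and any 2 libraries shared 29 to 107 cell barcodes. In 1 library a gene went against the genotype label. Mylk, a smooth muscle myosin kinase gene among the markers, had 64.7 to 95.3 CPM in oligodendrocyte-like nuclei of 5 WT libraries, 0.387 to 2.82 CPM in the 6 3xTg-AD libraries and 1.00 CPM in WT 6 months replicate 7. By this gene the WT label of replicate 7 is in doubt, while by Mrc2 in microglia-like nuclei (11.1 CPM, against 112.7 to 144.5 CPM in 3xTg-AD) it stood with the WT libraries. The label was kept, and the 6-month results are also given without it. Levels are given in CPM, the gene's UMIs per 1000000 UMIs of that class in that library, and a class's level is its median over the libraries with at least 10 nuclei of the class. Levels by class are a description with no test. Fewer nuclei of a finer cell type within a class and less RNA per nucleus cannot be told apart in such sums.

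The collagen genes had different classes of highest level, and most of these classes were non-neuronal. Of the 44 genes, 16 had their highest median level in fibroblast-like nuclei, 8 in choroid plexus-like, 4 in OPC-like and 3 each in endothelium-like, ependymal-like and microglia-like nuclei. A neuronal class was highest for 6 genes, and oligodendrocyte-like nuclei for 1. The summed level of all 44 genes was 3724 CPM in fibroblast-like nuclei (3271 to 4322 over libraries) and 4287 CPM in choroid plexus-like nuclei (3877 to 5127). In astrocyte-like nuclei it was 462 CPM and in oligodendrocyte-like nuclei 206 CPM (178 to 259), below the fibroblast-like and choroid plexus-like ranges in every library. In number of genes at 10 CPM or more, fibroblast-like nuclei had 29, ependymal-like 20, pericyte-like 16, excitatory neuron-like and choroid plexus-like 14, astrocyte-like and OPC-like 13 and microglia-like 4. Pericyte-like nuclei had 43287 to 116298 UMIs in a library and excitatory neuron-like nuclei 19777263 to 39885796. The mark of 10 CPM thus rests on far fewer UMIs in small classes, and these numbers are not comparable between classes of unlike size.

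Highest level and largest source of UMIs were separate quantities. Neurons held 78.1% of the retained UMIs, and 30 of the 44 genes had more than 50% of their UMIs in neurons. Fibroblast-like nuclei made up 1.29% of nuclei and 0.547% of UMIs, yet held 53.2% of the UMIs of Col3a1, 44.2% of Col4a6, 40.8% of Col13a1 and 38.8% of Col1a2. Nuclei that fit no class, with 9.82% of UMIs, held 31.6%, 31.8%, 24.3% and 27.7% of these. Of Col23a1 they held 28.5%, against 10.5% in fibroblast-like nuclei. The top class of 11 genes was above every other class without overlap of the library ranges. These were Col1a1, Col1a2, Col5a1, Col12a1, Col22a1 and Col26a1 in fibroblast-like nuclei, Col8a1 and Col9a3 in choroid plexus-like nuclei, Col9a1 and Col11a2 in OPC-like nuclei and Col27a1 in microglia-like nuclei. Neither this count nor that of the highest classes was made over all genes, so whether they are unusual was not tested. In median level, 7 genes stayed under 10 CPM in every class. A median over small libraries can miss a gene with few UMIs. Col28a1, 1 of the 7, had 22 UMIs among the 990307 of pericyte-like nuclei and 818 among the 361014073 of excitatory neuron-like nuclei. The class of highest level was the same for 35 of the 44 genes under every other gate and filter and with each library left out. It changed for Col2a1, Col6a4, Col7a1, Col10a1, Col14a1, Col18a1, Col19a1, Col25a1 and Col28a1 in at least 1 of these, and for 7 of them under the stricter gate, where Col19a1 was highest in inhibitory and Col25a1 in habenular neuron-like nuclei.

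**Figure D1:**
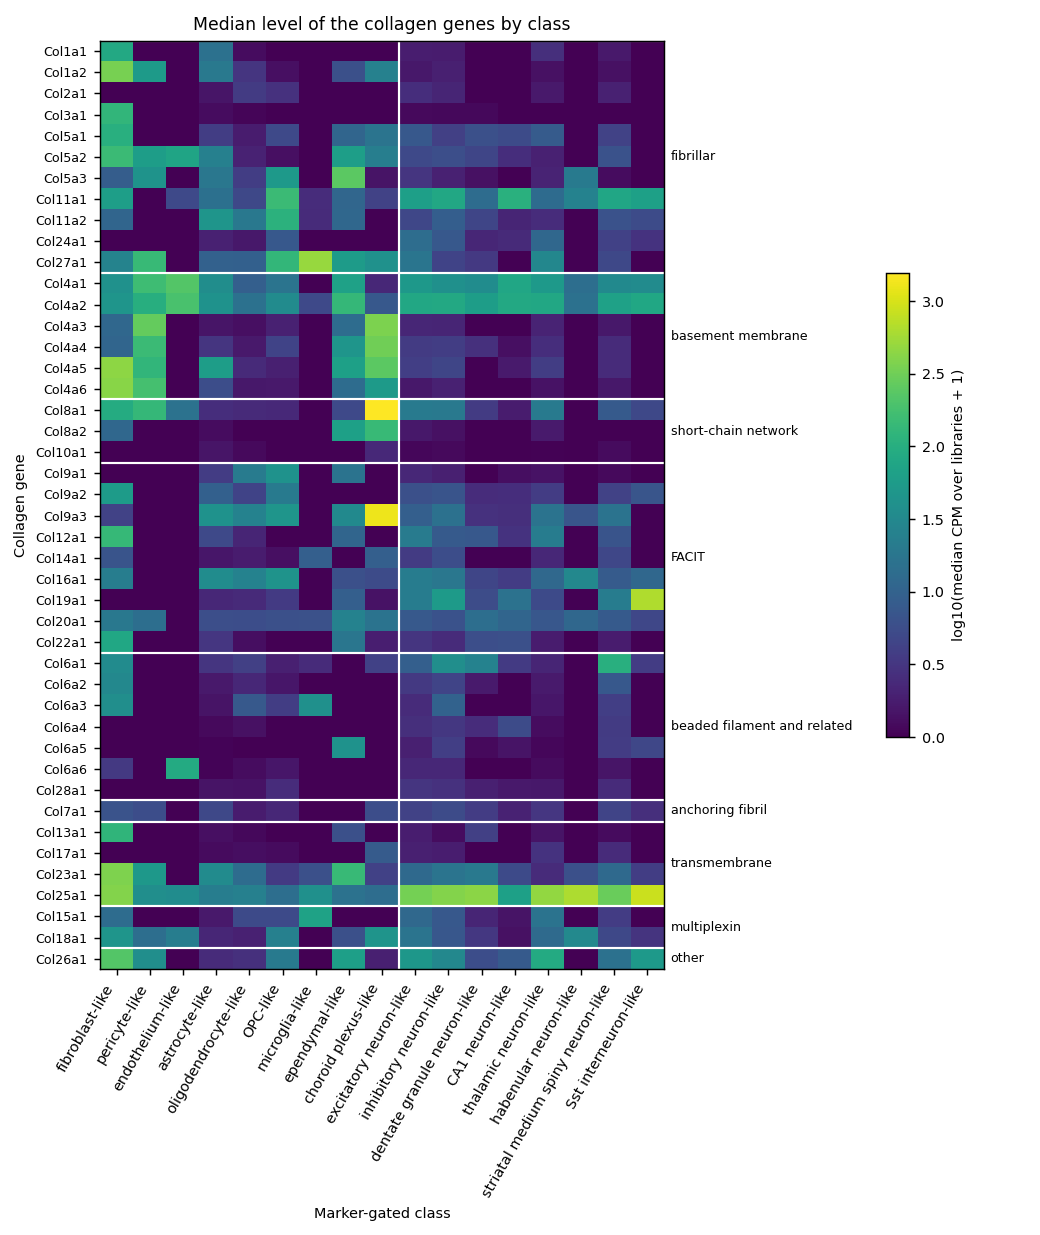
Median level of the 44 collagen genes (rows, ordered by collagen family) in 17 classes of nuclei (columns), coloured as log10 of CPM plus 1, each median over the libraries with at least 10 nuclei of the class. Fibroblast-like nuclei were the highest column for 16 genes and choroid plexus-like nuclei for 8.

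Among the 11 fibrillar genes, 5 had their highest level in fibroblast-like nuclei. Col1a2, a chain of type I collagen and so of most connective tissue fibrils, had a lowest value of 293, a median of 344 and a highest of 514 CPM there, against a median of 53.5 CPM in pericyte-like nuclei. Col1a1, the other type I chain, had 53.0, 84.0 and 108 CPM in fibroblast-like nuclei. Its next class was astrocyte-like, with a median of 14.5 CPM. The 12 fibroblast-like values of each chain lay above all values of the other classes. Col3a1, the single chain of type III collagen of distensible tissues, had 45.1, 125 and 210 CPM in fibroblast-like nuclei and its next median, in astrocyte-like nuclei, was 0.26 CPM. That order holds for medians only. Pericyte-like nuclei held 12 Col3a1 UMIs among 990307, astrocyte-like nuclei 17 among 51025125, and the range of 1 other class overlapped the fibroblast-like one. The type V chains, which set fibril diameter, had unlike classes. Col5a1 and Col5a2 were highest in fibroblast-like nuclei at 103 (52.6 to 172) and 148 (125 to 323) CPM, and Col5a2 was next at 72.3 CPM in endothelium-like nuclei. Col5a3 was highest in ependymal-like nuclei, at 245 CPM (134 to 276), ahead of OPC-like nuclei at 52.0 CPM.

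The remaining fibrillar genes were highest outside the fibroblast-like class. Col11a1 and Col11a2, chains of the cartilage collagen type XI, were both highest in OPC-like nuclei, at 150 CPM (121 to 176) and 111 CPM (90.8 to 175). The next class of Col11a1 was CA1 neuron-like nuclei at 106 CPM, with a range that overlapped, and that of Col11a2 was astrocyte-like nuclei at 45.2 CPM, with none. Col27a1, a fibrillar chain known from cartilage, was highest in microglia-like nuclei, at 333, 495 and 643 CPM for the lowest, median and highest library. Its next class, pericyte-like nuclei, had 141 CPM. At least 1 Col27a1 UMI was found in 51.3% of microglia-like nuclei (95% exact binomial interval 48.9 to 53.7%, counting error only; median depth 1577 UMIs), while in oligodendrocyte-like nuclei, at a median of 1911 UMIs, the share was 1.94%. Col24a1 was highest in excitatory neuron-like nuclei, at 12.9 CPM. Col2a1, the cartilage chain of type II collagen, was under 10 CPM in every class and highest in oligodendrocyte-like nuclei, at 2.62 CPM (0.556 to 5.89).

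The 6 type IV genes form 3 pairs that stand head to head on their chromosomes, each pair read outward from a shared region. Col4a1 and Col4a2 encode the chains found in nearly all basement membranes. Col4a3, Col4a4 and Col4a5 form the network of the kidney glomerulus and some other epithelia, and Col4a5 and Col4a6 form that of smooth muscle and some epithelia. On GRCm38 with the GENCODE M21 annotation, Col4a1 lies on chr8:11198423-11312826 on the minus strand and Col4a2 on chr8:11312805-11449287 on the plus strand, so that they overlap by 22 bases. Col4a3 (chr1:82586921-82722059, plus) and Col4a4 (chr1:82448423-82586849, minus) are 71 bases apart, and Col4a5 (chrX:141475385-141689234, plus) and Col4a6 (chrX:141165403-141474076, minus) 1308 bases. The promoters of 2 of these pairs are shown because the chains of a pair are set against each other here, by class and by genotype. They are RefSeq windows on GRCm38.p6 that run from 250 bases before to 50 bases after the transcription start, 5′ to 3′ on the gene's strand, with capitals marking CCAAT or its reverse complement ATTGG and GGGCGG or its reverse complement CCGCCC.
Col4a1, chr8:11312777-11313076, minus strand: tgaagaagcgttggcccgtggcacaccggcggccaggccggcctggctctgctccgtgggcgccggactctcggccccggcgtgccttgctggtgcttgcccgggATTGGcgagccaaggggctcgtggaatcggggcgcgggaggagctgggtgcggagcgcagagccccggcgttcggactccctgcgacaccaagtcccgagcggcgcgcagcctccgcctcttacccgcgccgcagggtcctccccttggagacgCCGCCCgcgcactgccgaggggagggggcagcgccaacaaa
Col4a2, chr8:11312555-11312854, plus strand: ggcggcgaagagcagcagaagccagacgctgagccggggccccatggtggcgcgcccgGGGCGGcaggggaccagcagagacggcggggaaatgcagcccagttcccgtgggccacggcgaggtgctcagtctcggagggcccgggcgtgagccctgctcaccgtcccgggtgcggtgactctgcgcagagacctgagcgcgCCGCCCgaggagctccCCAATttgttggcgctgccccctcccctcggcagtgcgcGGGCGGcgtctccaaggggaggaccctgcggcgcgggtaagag
Col4a5, chrX:141475169-141475468, plus strand: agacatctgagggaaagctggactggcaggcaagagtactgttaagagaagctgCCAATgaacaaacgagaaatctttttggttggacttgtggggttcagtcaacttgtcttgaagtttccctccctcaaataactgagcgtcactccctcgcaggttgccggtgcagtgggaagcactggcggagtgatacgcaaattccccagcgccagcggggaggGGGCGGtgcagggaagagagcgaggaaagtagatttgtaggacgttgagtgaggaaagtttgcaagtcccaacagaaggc
Col4a6, chrX:141474027-141474326, minus strand: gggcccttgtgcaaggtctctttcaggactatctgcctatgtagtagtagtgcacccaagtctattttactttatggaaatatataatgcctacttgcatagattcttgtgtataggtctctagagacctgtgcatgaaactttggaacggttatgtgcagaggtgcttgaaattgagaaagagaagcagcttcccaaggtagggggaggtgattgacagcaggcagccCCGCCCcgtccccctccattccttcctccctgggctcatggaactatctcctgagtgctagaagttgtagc

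The RefSeq starts of Col4a1 and Col4a2 are 21 bases apart and their windows share 78 bases, so the same letters appear in both, reversed and complemented. The starts of Col4a5 and Col4a6 are 1343 bases apart and their windows share no base. G and C made up 74% and 73.7% of the Col4a1 and Col4a2 windows, against 52.7% and 48.3% for Col4a5 and Col4a6. A RefSeq window was at hand for 35 of the 44 genes (38 windows), 5 of which belonged to type IV genes. GGGCGG, searched on both strands as were the others, stood in 60.5% of the 38 windows (23) and in 4 of the 5 type IV windows, and in 35.7% of all 32851 windows. CCAAT was in 34.2% of the collagen windows and 37.4% of all windows, and TATAAA in 13.2% and 13.6%. None of the 5 type IV windows held TATAAA and 3 held CCAAT.

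Each head-to-head pair had its highest level in the same class. Col4a1 and Col4a2 were highest in endothelium-like nuclei, at 217 CPM (131 to 494) and 188 CPM (89.8 to 306). The Col4a1 range overlapped that of pericyte-like nuclei (158 CPM) only. The Col4a2 range overlapped those of 9 other classes, of which ependymal-like nuclei were next (134 CPM). Col4a3 and Col4a4 were highest in choroid plexus-like nuclei, at 362 CPM (260 to 463) and 317 CPM (240 to 410), and next in pericyte-like nuclei, at 278 and 149 CPM. At least 1 Col4a3 UMI was found in 25.6% of pericyte-like nuclei (22.6 to 28.9%, median depth 1218 UMIs) and in 0.0593% of the deeper oligodendrocyte-like nuclei. Col4a5 and Col4a6 were highest in fibroblast-like nuclei, at 453 CPM (288 to 551) and 421 CPM (260 to 623). Their next classes differed, choroid plexus-like for Col4a5 (241 CPM) and pericyte-like for Col4a6 (180 CPM).

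Within a pair, the ratio of the chains moved with the class. Ratios are of UMIs, are not corrected for gene length and are compared only between classes. They were taken only in libraries with at least 5 UMIs of each chain, so ranges in sparse classes cover fewer libraries. In pericyte-like nuclei, 9 libraries gave Col4a1 to Col4a2 and 9 gave Col4a5 to Col4a6. The Col4a1 to Col4a2 ratio had a median of 1.496 in endothelium-like nuclei (0.632 to 1.91 over libraries) and 1.71 in pericyte-like nuclei, against 0.509 in oligodendrocyte-like (0.3 to 0.623) and 0.490 in inhibitory neuron-like nuclei (0.395 to 0.540). All inhibitory neuron-like and oligodendrocyte-like values were thus under the lowest endothelium-like value. For Col4a3 to Col4a4 the median was 1.75 in pericyte-like nuclei (0.875 to 5.8) and 1.12 in choroid plexus-like nuclei (0.842 to 1.37), against 0.420 in inhibitory neuron-like nuclei (0.231 to 0.554), with no overlap between the last and the former pair. For Col4a5 to Col4a6 the order was another. Astrocyte-like nuclei had a median of 12.1 (6.43 to 15.9), choroid plexus-like nuclei 4.25 (2.85 to 6.76), fibroblast-like nuclei 0.972 (0.813 to 2.05) and pericyte-like nuclei 0.545 (0.4375 to 1.89).

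Chains of other types that share a trimer also varied. Col11a1 to Col11a2 had a median ratio of 13.7 in excitatory neuron-like nuclei (10.5 to 22.8), 1.28 in OPC-like nuclei (0.957 to 1.82) and 0.308 in astrocyte-like nuclei (0.187 to 0.556), 3 ranges that did not overlap. Col6a1 to Col6a2 was 17.7 in striatal medium spiny neuron-like nuclei (1 to 22.4) and 1.3 in fibroblast-like nuclei. Col1a1 to Col1a2 was 0.216 in fibroblast-like nuclei (0.156 to 0.34) and 0.706 in astrocyte-like nuclei. Col8a1 to Col8a2 was 10.8 in choroid plexus-like and 31.8 in excitatory neuron-like nuclei. Col9a1 to Col9a3 was 1.11 in OPC-like and 0.0654 in inhibitory neuron-like nuclei.

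**Figure D2:**
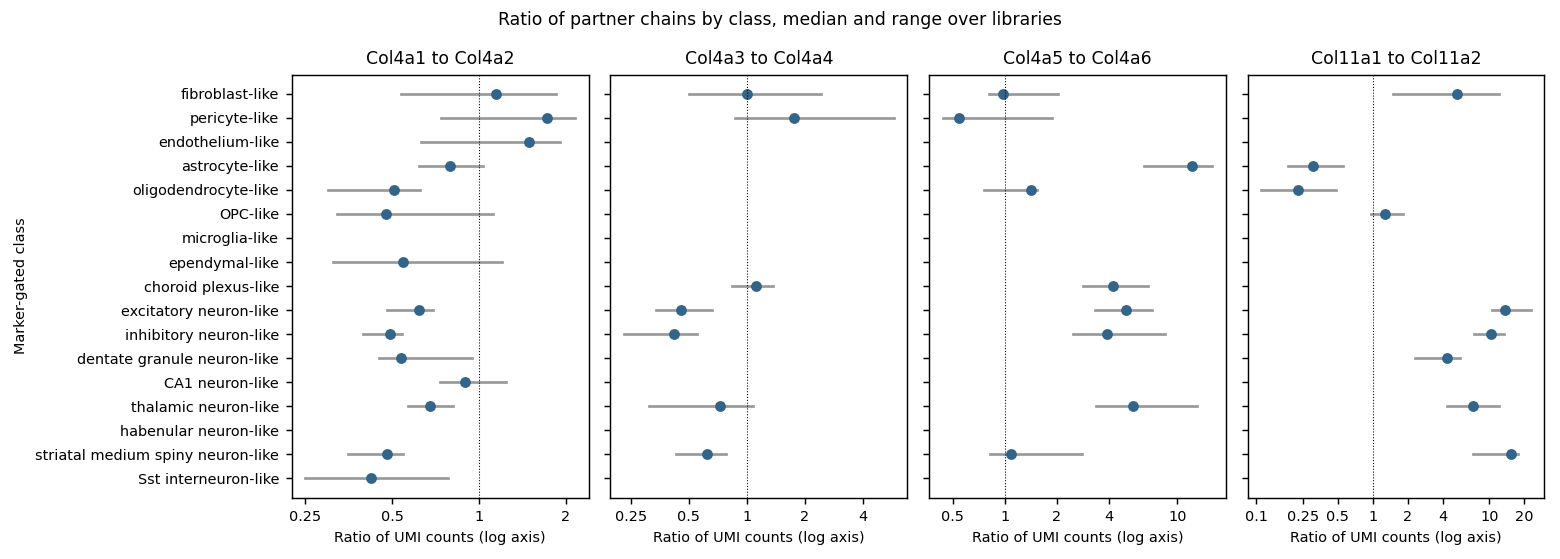
Ratio of the UMIs of chain genes that share a collagen trimer (log axis, dotted line at equal counts) by class, with a dot for the median over libraries and a line from the lowest to the highest library. Libraries with fewer than 5 UMIs of either chain were left out. The Col4a5 to Col4a6 median ran from 12.1 in astrocyte-like to 0.545 in pericyte-like nuclei, and the Col11a1 to Col11a2 median from 15.5 in striatal medium spiny neuron-like to 0.228 in oligodendrocyte-like nuclei.

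Neighbouring collagen genes shared a class in some pairs only. Of 8 pairs of collagen genes within 100 kb of each other, 4 had the same highest class. These were the 3 type IV pairs and the tail-to-tail pair of Col3a1 and Col5a2, which are 24614 bases apart. Col6a1 and Col6a2 (85161 bases), Col6a4 and Col6a5 (28810), Col6a5 and Col6a6 (27917) and Col9a1 and Col19a1 (9205) did not share one.

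All 3 short-chain genes had their highest level in choroid plexus-like nuclei. Col8a1, a chain of the hexagonal network under corneal and vascular endothelium, had 1237, 1562 and 2689 CPM as its lowest, median and highest value in choroid plexus-like nuclei, and its next class, pericyte-like nuclei, had a median of 134 CPM. Col8a2, its partner chain, had 142 CPM in choroid plexus-like and 64.5 CPM in ependymal-like nuclei. Col10a1, the chain of growth plate cartilage, had 1.32 CPM there (0 to 3.42), from 7 UMIs, with a range that overlapped those of the 16 other classes.

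The 9 fibril-associated genes (FACIT, whose triple helices are interrupted and which coat fibrils) had their highest levels in 5 classes. Col9a3, a type IX chain, had 1002, 1305 and 1702 CPM in choroid plexus-like nuclei and a median of 45.5 CPM in OPC-like nuclei, the next class. Its partner chains were elsewhere, Col9a1 in OPC-like nuclei at 41.3 CPM (35.7 to 57.0; oligodendrocyte-like 20.5 CPM) and Col9a2 in fibroblast-like nuclei at 56.1 CPM. Col12a1 and Col22a1, known from tendon and the junction of muscle with tendon, were highest in fibroblast-like nuclei, at 137 CPM (77.7 to 201) and 79.4 CPM. Col14a1 was highest in choroid plexus-like nuclei at 8.33 CPM, Col16a1 in OPC-like nuclei at 42.8 CPM with astrocyte-like nuclei at 34.4 CPM, and Col20a1 in ependymal-like nuclei at 25.1 CPM (0 to 51.1). The range of Col20a1 overlapped those of all 16 other classes, and that of Col14a1 those of 13. Col19a1, known from hippocampal interneurons, where it takes part in the formation of inhibitory synapses, was highest in Sst interneuron-like nuclei. Its median there was 643 CPM, from 40.5 in WT 6 months replicate 3 to 1102 in WT 12 months replicate 4, and the median of all inhibitory neuron-like nuclei was 53.5 CPM. These Sst libraries held 13 to 30 nuclei each.

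Type VI collagen forms beaded filaments, and its genes were spread over 6 classes. Col6a1 was highest in striatal medium spiny neuron-like nuclei at 102 CPM, with 11 libraries from 43.6 to 141 CPM and WT 12 months replicate 4 at 6.28 CPM. Col6a2 was highest in fibroblast-like nuclei at 30.3 CPM. Col6a3 had 39.5 CPM in microglia-like and 36.9 CPM in fibroblast-like nuclei. Col6a4 was highest in CA1 neuron-like nuclei at 4.33 CPM, Col6a5 in ependymal-like nuclei at 41.2 CPM and Col6a6 in endothelium-like nuclei at 88.4 CPM (0 to 259). Col28a1, a related chain, had 2.13 CPM in excitatory neuron-like nuclei, and Col7a1, the chain of the anchoring fibrils under the epidermis, 5.48 CPM in fibroblast-like nuclei. For Col6a4, Col6a6 and Col7a1 the range of the highest class overlapped those of all 16 other classes.

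Of the 4 transmembrane collagens, Col13a1 and Col23a1 were highest in fibroblast-like nuclei. Col13a1 had 120 CPM there (63.8 to 151) and 4.97 CPM in ependymal-like nuclei, and Col23a1 had 379 CPM (255 to 817) and 142 CPM. Col17a1, a chain of hemidesmosomes, had 7.23 CPM in choroid plexus-like nuclei, with a range that overlapped those of the 16 other classes. Col25a1, a neuronal membrane collagen whose shed form is found in amyloid plaques, was at 10 CPM or more in all 17 classes. Its medians were 856 CPM in Sst interneuron-like nuclei (279 to 1481), 626 in habenular, 479 in thalamic and 435 in dentate granule neuron-like nuclei. The Sst interneuron-like range overlapped those of 7 other classes, the habenular one among them. In fibroblast-like nuclei its group means were 376 CPM (SD 44.4) in WT and 353 CPM (SD 224) in 3xTg-AD at 6 months. At 12 months they were 517 CPM (SD 169) in WT and 656 CPM (SD 563) in 3xTg-AD, and the 12-month groups overlapped.

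The multiplexins, collagens of vascular basement membranes whose ends are cut off as endostatin-type fragments, were highest in unlike classes. Col15a1 had 67.5 CPM (31.4 to 108) in microglia-like nuclei and 15.4 CPM in thalamic neuron-like nuclei. Col18a1 had 44.7 CPM in fibroblast-like and 44.5 CPM in choroid plexus-like nuclei, a difference within the spread of the libraries. Col26a1, which belongs to none of these families, was highest in fibroblast-like nuclei at 220 CPM (144 to 291), ahead of thalamic neuron-like nuclei at 87.8 CPM.

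**Figure D3:**
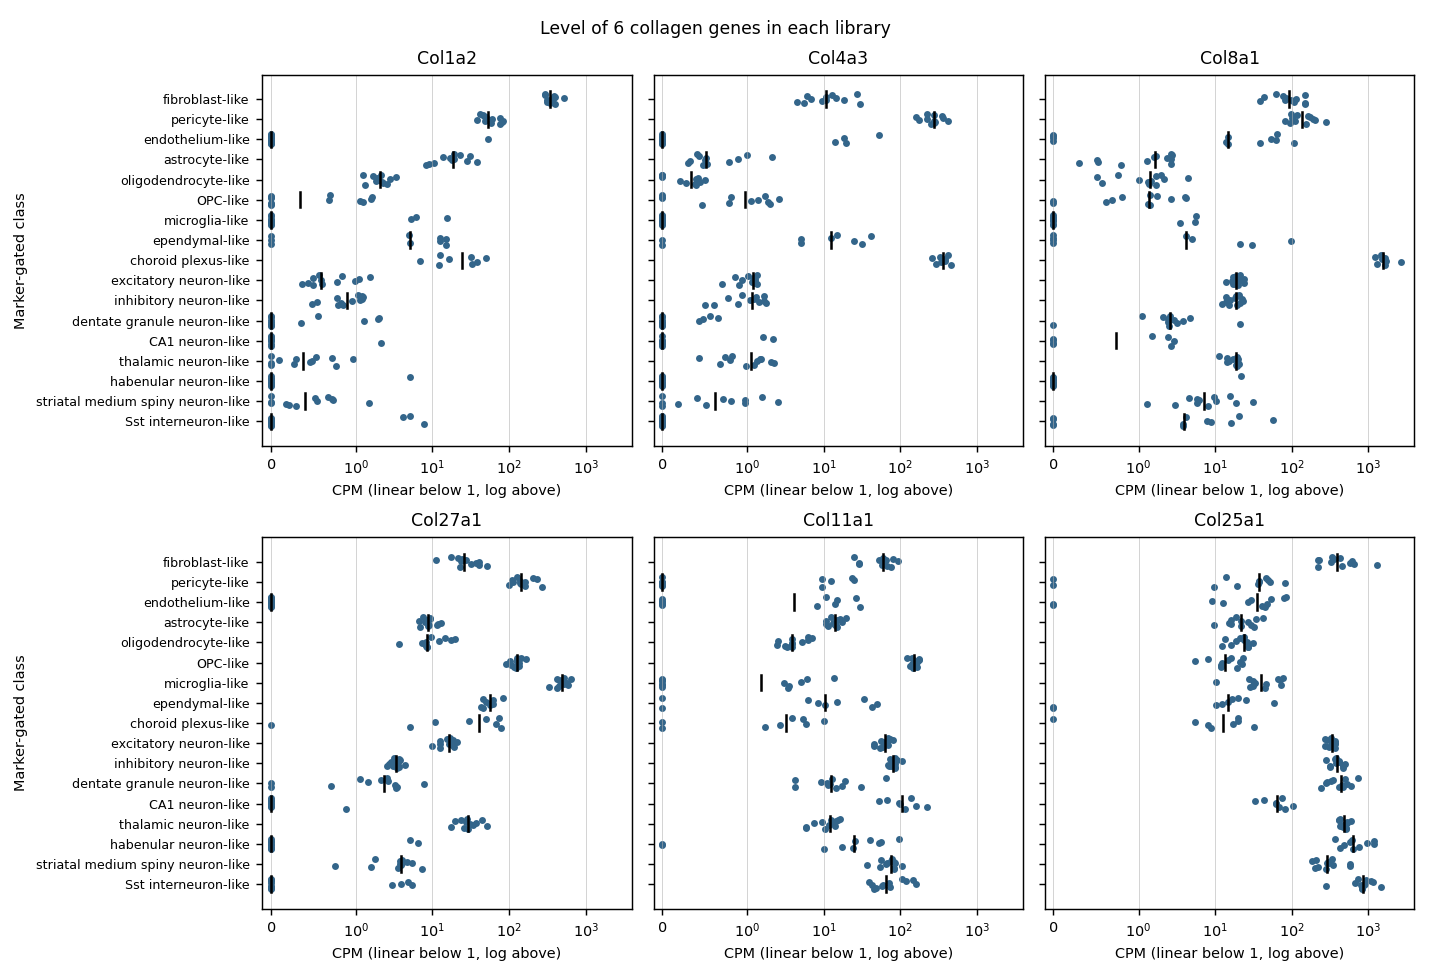
Level of Col1a2, Col4a3, Col8a1, Col27a1, Col11a1 and Col25a1 in each library (points, CPM, axis linear near 0 and logarithmic above) by class, with a black bar at the median. The lowest fibroblast-like library of Col1a2 was at 293 CPM and the lowest microglia-like library of Col27a1 at 333 CPM, above all libraries of the other classes, while Col25a1 was at 10 CPM or more in the median of all 17 classes.

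Whether collagen genes differed between the genotypes at 6 months was tested on the summed counts of each class and library, 3 libraries against 3, with edgeR's quasi-likelihood test and Benjamini-Hochberg adjustment over all genes of the class. The call needed an adjusted p under 0.05 together with a log2 fold change beyond 0.2 in size. In 14 classes, 43 collagen genes gave 254 pairs of gene and class that passed the filter on low counts, and 8 pairs were called, 4 higher and 4 lower in 3xTg-AD. That was 3.15% of the collagen pairs, beside 0.714% of the pairs of all genes (0.236% higher and 0.478% lower). DESeq2 called 13 collagen pairs and 0.494% of all pairs. An unadjusted p under 0.05 was found for 54 pairs (21.3%, beside 8.82% for all genes). Without WT replicate 7 the calls of Col4a1 and Col4a2 in oligodendrocyte-like nuclei were kept and the other 6 had log2 fold changes of the same sign but adjusted p of 0.0756 to 0.170. The count fell to 2 without 3xTg-AD replicate 5 or without WT replicate 7 and to 3 without 3xTg-AD replicate 1 or 9. The excitatory and inhibitory classes hold subtype nuclei as well, so these pairs are not independent.

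The 2 chains of basement membrane type IV were higher in oligodendrocyte-like nuclei of 6-month 3xTg-AD mice. Col4a1 had 11.5, 10.1 and 11.6 CPM in 3xTg-AD replicates 1, 5 and 9 and 3.29, 2.26 and 2.78 CPM in WT replicates 3, 7 and 11. Every 3xTg-AD library was above every WT library, with a log2 fold change of 1.96 (SE 0.24, edgeR adjusted p = 0.00271). Col4a2, whose start is next to that of Col4a1, had 24.6, 16.2 and 22.4 CPM against 7.55, 7.53 and 5.56 CPM. These groups did not overlap either, and the log2 fold change was 1.58 (SE 0.21, edgeR adjusted p = 0.00455). In this class 1.22% of all genes were called. The counts behind Col4a1 were 45 to 59 UMIs in a 3xTg-AD library and 9 to 17 in a WT library. In the same nuclei the summed endothelium markers were 6.50 to 7.94 CPM in 3xTg-AD and 3.06 to 12.2 CPM in WT, the pericyte markers 3.16 to 7.94 and 4.52 to 8.90 CPM, and the general neuron markers 788 to 1309 and 1074 to 1465 CPM, with overlapping groups each time. Smooth muscle markers summed to 3.16 to 4.86 and 3.76 to 80.3 CPM, the latter through Mylk. Interneuron marker panels were higher in 3xTg-AD without overlap, at 19.2 to 22.3 against 3.26 to 6.77 CPM for Vip and 122 to 139 against 86.9 to 108 CPM for Lamp5 interneurons. Neurons held 84.1% of all Col4a1 and 86.3% of all Col4a2 UMIs, and free RNA was not removed. The part of other cells' RNA in the result was not tested. At 12 months the groups overlapped for both chains. Col4a1 had 8.01, 6.59 and 9.80 CPM in 3xTg-AD and 8.40, 12.7 and 1.77 CPM in WT, a log2 fold change of 0.06, and Col4a2 had 14.3, 15.1 and 16.3 CPM against 14.3, 22.7 and 3.99 CPM. WT replicate 12 was the lowest library for both. The test of the change with age did not pass for either chain (Col4a1 log2 -1.90, edgeR adjusted p = 0.425; Col4a2 log2 -1.46, edgeR adjusted p = 0.540).

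The other 6 calls at 6 months lay in 4 classes. Col16a1, a fibril-associated chain, had 31.2, 23.8 and 22.5 CPM in 3xTg-AD astrocyte-like nuclei and 36.1, 52.9 and 44.6 CPM in WT. It was lower in every 3xTg-AD library, with a log2 fold change of -0.78 (SE 0.16, edgeR adjusted p = 0.0497), in a class where 0.851% of genes were called. With RLE size factors it was not called (edgeR adjusted p = 0.0508), and 1 of 6 fits that left out a library called it. In inhibitory neuron-like nuclei (0.892% called), Col15a1 had 5.42, 4.46 and 4.64 CPM against 8.59, 7.90 and 8.998 CPM in WT, lower throughout by a log2 of -0.79 (SE 0.13, edgeR adjusted p = 0.0390). Col2a1 had 1.99, 2.46 and 1.88 CPM against 0.728, 0.656 and 0.656 CPM, higher throughout by 1.66 (SE 0.22, edgeR adjusted p = 0.0138).

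In thalamic neuron-like nuclei (1.18% called), Col25a1 had 590, 521 and 533 CPM in 3xTg-AD and 425, 419 and 418 CPM in WT. The WT libraries lay close together and below all 3xTg-AD libraries, and the log2 fold change was 0.45 (SE 0.09, edgeR adjusted p = 0.0388). Col9a2 had 1.55, 1.29 and 1.30 CPM against 2.57, 4.84 and 6.38 CPM, a log2 fold change of -1.60 (SE 0.33, edgeR adjusted p = 0.0451). The greatest fold was that of Col5a2 in striatal medium spiny neuron-like nuclei, where 0.166% of genes were called. It had 0.360, 1.71 and 1.75 CPM in 3xTg-AD, from 1, 7 and 13 UMIs, and 15.6, 31.1 and 40.5 CPM in WT, from 61, 139 and 393 UMIs. The log2 fold change was -4.33 (SE 0.48, edgeR adjusted p = 0.0159).

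At 12 months, 17 of 240 pairs were called, 4 higher and 13 lower in 3xTg-AD. That was 7.08% of the collagen pairs, beside 2.15% of the pairs of all genes tested in the 14 classes (0.971% higher and 1.18% lower), and 74 pairs had an unadjusted p under 0.05 (30.8%, beside 13.6%). DESeq2 called 30 collagen pairs and 1.68% of all pairs. Of the 17 calls by edgeR, 9 were in inhibitory neuron-like and 6 in striatal medium spiny neuron-like nuclei. In these classes 5.49% and 8.45% of all genes were called. The count rested on single libraries, with 0 pairs called without 3xTg-AD replicate 2, 2 without 3xTg-AD replicate 6, 4 without WT replicate 12, 8 without WT replicate 4 and 40 without 3xTg-AD replicate 10. The share of all genes called in these fits is not given here, so these counts do not set collagens apart from other genes. By family, 4 calls were fibrillar, 1 basement membrane, 2 fibril-associated, 3 beaded filament, 3 transmembrane, 2 multiplexin and 2 Col26a1.

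In astrocyte-like nuclei, Col1a2 had 10.6, 8.91 and 8.25 CPM in 3xTg-AD replicates 2, 6 and 10 and 18.2, 28.02 and 37.9 CPM in WT replicates 4, 8 and 12. It was lower in every 3xTg-AD library, with a log2 fold change of -1.59 (SE 0.24, edgeR adjusted p = 0.0118), in a class with 0.489% of genes called. The fibroblast markers in the same nuclei summed to 164 to 180 CPM in 3xTg-AD and 188 to 225 CPM in WT, and their part in the result was not tested. At 6 months Col1a2 had 13.9, 16.8 and 19.0 CPM against 18.9, 23.2 and 30.8 CPM, a log2 fold change of -0.53 that did not pass (edgeR adjusted p = 0.371). In excitatory neuron-like nuclei (1.05% called), Col5a1 had 4.002, 4.21 and 3.90 CPM against 7.43, 6.85 and 7.61 CPM. The libraries of each genotype lay close together and apart from the other, by a log2 of -0.81 (SE 0.15, edgeR adjusted p = 0.0470). Subtypes that can stand in this class were unequal between these libraries. Dentate granule neuron-like nuclei numbered 18, 24 and 165 in 3xTg-AD and 353, 187 and 379 in WT, without overlap. CA1 neuron-like nuclei numbered 3, 1 and 100 against 91, 79 and 131, with overlap. The part of this makeup in the result was not tested.

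Of 41 collagen genes tested in 12-month inhibitory neuron-like nuclei, 3 were called higher and 6 lower in 3xTg-AD. Col15a1, called lower at 6 months as well, had 2.44, 2.76 and 3.57 CPM against 10.96, 12.4 and 7.58 CPM in WT. All 3 3xTg-AD libraries were under the lowest WT library, with a log2 fold change of -1.72 (SE 0.23, edgeR adjusted p = 0.00976). Col6a1 had 48.5, 57.7 and 33.3 CPM against 5.82, 15.3 and 12.6 CPM, higher in every 3xTg-AD library by 2.19 (SE 0.32, edgeR adjusted p = 0.0140). Col2a1, called at both ages, had 1.73, 1.37 and 2.07 CPM against 0.728, 0.675 and 0.867 CPM. Its log2 fold change was 1.28 (SE 0.26, edgeR adjusted p = 0.0293), and the groups did not overlap. Col26a1 had 20.03, 21.1 and 27.4 CPM against 49.1, 44.7 and 38.7 CPM, a log2 fold change of -0.86 (SE 0.14, edgeR adjusted p = 0.0185). Col4a4 had 1.91, 1.42 and 1.25 CPM against 4.32, 4.23 and 3.90 CPM, a log2 fold change of -1.32 (SE 0.25, edgeR adjusted p = 0.0249).

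The remaining 4 calls of this class also had groups that did not overlap. Col9a2 had 4.12, 3.50 and 5.35 CPM in 3xTg-AD and 8.91, 8.46 and 8.93 CPM in WT (log2 -0.92, SE 0.17, edgeR adjusted p = 0.0243). Col18a1 had 3.38, 3.18 and 5.82 CPM against 9.004, 8.24 and 10.96 CPM (log2 -1.09, SE 0.22, edgeR adjusted p = 0.0284). The transmembrane genes went in opposite directions. Col17a1 had 0.840, 1.10 and 0.908 CPM against 0.318, 0.315 and 0.390 CPM (log2 1.58, SE 0.30, edgeR adjusted p = 0.0262), and Col23a1 had 13.9, 16.0 and 16.0 CPM against 27.1, 28.4 and 21.7 CPM (log2 -0.64, SE 0.15, edgeR adjusted p = 0.0423).

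The makeup of the inhibitory neuron-like nuclei differed between the 12-month libraries. Striatal medium spiny neuron-like nuclei were 28.8%, 27.1% and 10.3% of them in 3xTg-AD and 2.79%, 4.50% and 4.48% in WT. At 6 months the shares overlapped, at 9.98%, 12.4% and 16.8% in 3xTg-AD and 11.9%, 13.3% and 27.3% in WT. Over all libraries a further 14868 neuron-like nuclei lay just below the striatal gate and in no subtype, so these shares depend on the cut. The summed striatal markers stood at 1401 to 3097 CPM in 12-month 3xTg-AD and 833 to 1238 CPM in WT. In inhibitory neuron-like nuclei with at most 1 striatal marker, a gate chosen after the data were seen, Col6a1 had a 12-month log2 fold change of 0.58 and was no longer called (edgeR adjusted p = 0.301). Calls were also lost for Col4a4 (log2 -0.49), Col9a2 (-0.61), Col26a1 (-0.33), Col18a1 (-0.53) and Col23a1 (-0.50), whose fold changes were all smaller than in the whole class. Col2a1 lost its call at a fold change that was not smaller (log2 1.85, edgeR adjusted p = 0.0525), Col17a1 did not pass the filter on low counts, and Col15a1 kept its call (log2 -1.36, edgeR adjusted p = 0.0328). At 6 months Col2a1 lost its call under this gate with a log2 fold change of 1.70, close to that of the whole class (edgeR adjusted p = 0.0852). The gate leaves fewer nuclei, and the part of that in the lost calls was not tested.

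In 12-month striatal medium spiny neuron-like nuclei, 6 of 23 collagen genes tested were called, 5 lower and 1 higher in 3xTg-AD. Col5a2, called lower at both ages, had 1.84, 0.832 and 1.74 CPM against 8.79, 11.7 and 23.3 CPM in WT. The groups lay well apart, with a log2 fold change of -3.20 (SE 0.45, edgeR adjusted p = 0.0190). Col26a1 had 7.18, 6.55 and 10.2 CPM against 30.2, 19.5 and 23.3 CPM, lower throughout by a log2 of -1.48 (SE 0.26, edgeR adjusted p = 0.0214). Col25a1 had 222, 199 and 279 CPM against 579, 347 and 581 CPM. The groups did not overlap, and the log2 fold change was -0.96 (SE 0.21, edgeR adjusted p = 0.0322). At 6 months it had 295, 290 and 307 CPM against 335, 208 and 181 CPM in these nuclei, with overlap and a log2 fold change of 0.33 that did not pass (edgeR adjusted p = 0.934), and the test of the change with age did not pass (log2 -1.28, edgeR adjusted p = 0.0776). The beaded filament genes Col6a5 and Col6a3 were lower in 3xTg-AD as well. Col6a5 had 1.93, 0.520 and 1.74 CPM against 6.28, 9.76 and 14.3 CPM (log2 -2.75, SE 0.52, edgeR adjusted p = 0.0258), and Col6a3 had 0.276, 1.35 and 2.91 CPM against 11.3, 5.86 and 20.3 CPM (log2 -3.24, SE 0.68, edgeR adjusted p = 0.0295). Col20a1 was the gene called higher in 3xTg-AD, with 9.39, 8.73 and 6.98 CPM against 5.03, 1.95 and 2.26 CPM (log2 1.74, SE 0.44, edgeR adjusted p = 0.0439). At 6 months Col6a5, Col6a3 and Col20a1 had log2 fold changes of -0.46, 1.38 and 0.05, and none passed (edgeR adjusted p = 0.968, 0.674 and 0.995). The 6-month groups of Col6a3 did not overlap.

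These striatal values rested on unequal numbers of nuclei, 1431, 1318 and 427 in 3xTg-AD and 78, 136 and 110 in WT. Col20a1 had 4, 2 and 3 UMIs in the WT libraries, and over the groups the ratio of its levels was 3.07 with a counting interval of 1.59 to 6.82. Fibroblast markers summed to 12.5 to 18.0 CPM in 3xTg-AD and 32.3 to 41.5 CPM in WT in these nuclei, and striatal markers to 3027 to 5335 CPM and 1219 to 3235 CPM, and the part of either in the results was not tested.

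**Figure D4:**
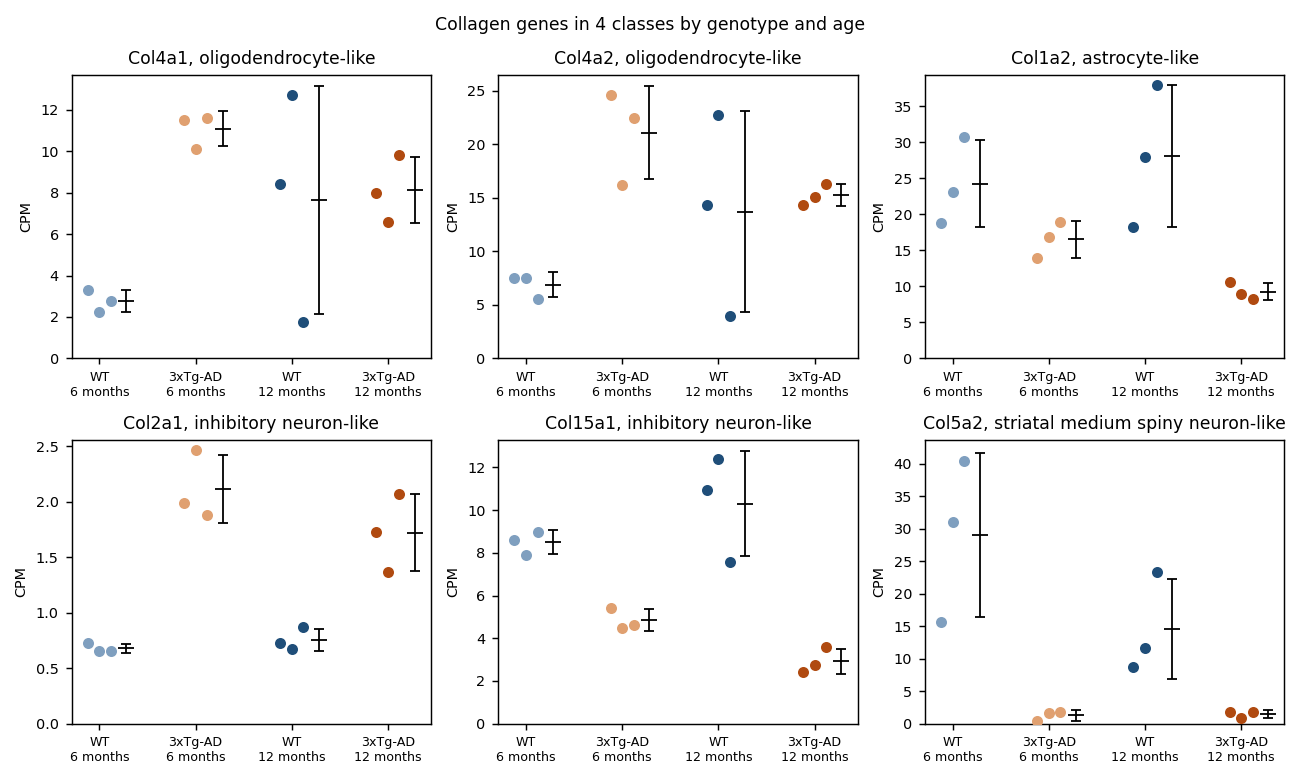
Level in CPM of 6 called pairs of collagen gene and class in each library (points) by genotype and age, with bars for the mean ± SD of 3 libraries. Col4a1 and Col4a2 in oligodendrocyte-like nuclei were apart between genotypes at 6 months and overlapped at 12 months, Col1a2 in astrocyte-like nuclei was apart at 12 months, and Col2a1 and Col15a1 in inhibitory and Col5a2 in striatal medium spiny neuron-like nuclei were apart at both ages.

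Over both ages, 22 pairs were called at either age and 3 at both, in the same direction each time. These were Col15a1 and Col2a1 in inhibitory neuron-like nuclei and Col5a2 in striatal medium spiny neuron-like nuclei. Of the 25 calls at the 2 ages, those of Col4a1 and Col4a2 in oligodendrocyte-like nuclei were kept whichever library was left out, and all others were lost in at least 1 such fit. A fit of all 12 libraries together lost these 2 in turn (edgeR adjusted p = 0.0745 and 0.0961). It also lost Col16a1 in astrocyte-like nuclei and Col15a1 in inhibitory neuron-like nuclei at 6 months, and Col5a1 in excitatory and Col23a1 in inhibitory neuron-like nuclei at 12 months. Under a stricter gate Col9a2 in thalamic neuron-like nuclei had a log2 fold change of -0.96 (edgeR adjusted p = 0.432), it was not called with doublets removed either (edgeR adjusted p = 0.0567), and Col25a1 there missed the threshold (edgeR adjusted p = 0.0550). The median log2 fold change of the collagen genes tested in inhibitory neuron-like nuclei was -0.23 at 6 and -0.36 at 12 months, and in striatal medium spiny neuron-like nuclei -0.25 and -0.78. In oligodendrocyte-like nuclei it was 0.21 and 0.06. The median over all genes tested lay within 0.01 of 0 in each class.

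**Figure D5:**
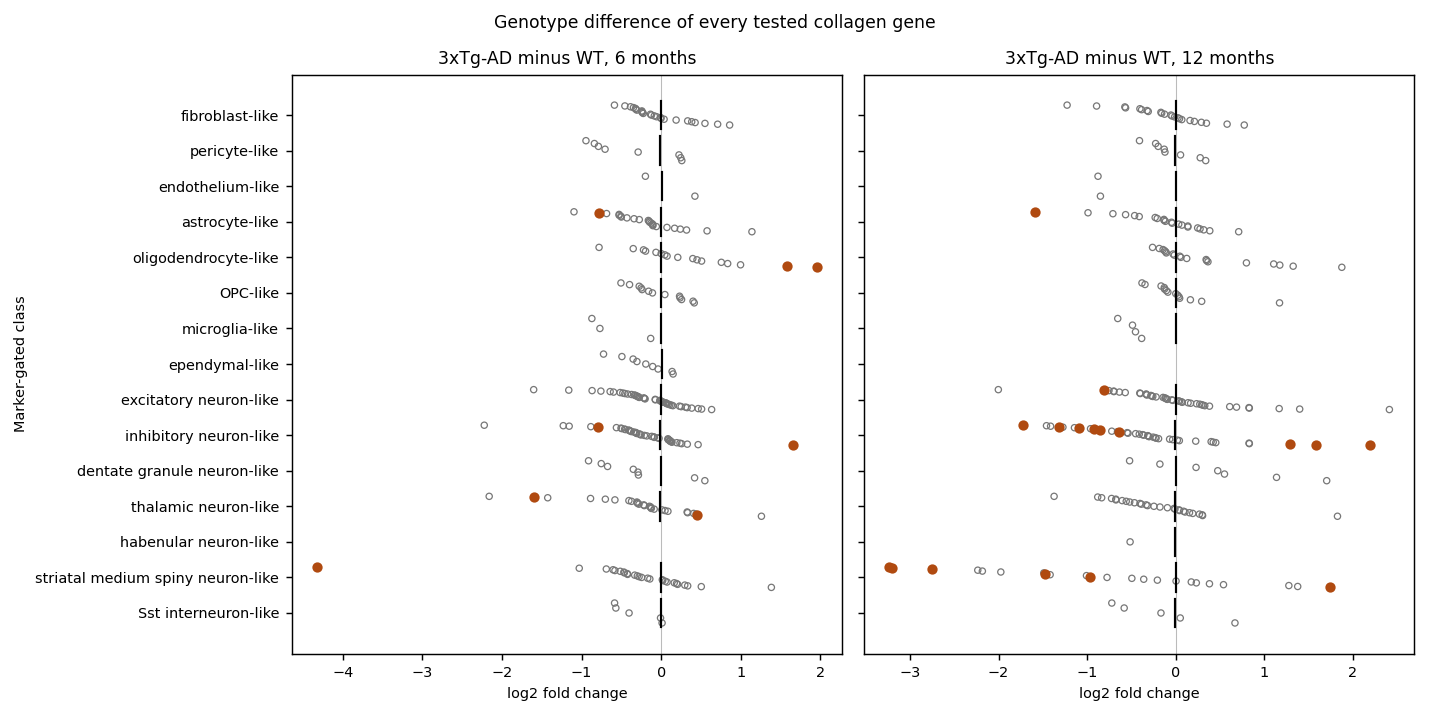
Log2 fold change of 3xTg-AD against WT for each collagen gene tested (open circles; filled where called) by class at 6 and at 12 months, with a black bar at the median of all genes tested in the class. The 12-month calls were mostly below 0 and stood mostly in the inhibitory neuron-like (9) and striatal medium spiny neuron-like (6) classes. The others were Col1a2 in astrocyte-like and Col5a1 in excitatory neuron-like nuclei.

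In the vascular and meningeal classes, where many collagens were highest, no collagen gene was called at either age by edgeR. Choroid plexus-like nuclei, the highest class for 8 genes, were not tested at either age, as some libraries had fewer than 10 of them. For the same reason ependymal-like nuclei were tested at 6 months only. Of 25 genes tested in fibroblast-like nuclei at 6 months, 4 had an unadjusted p under 0.05 (16%, beside 8.40% of all genes tested there). Col12a1 had 132, 196 and 201 CPM in 3xTg-AD and 77.7, 123 and 97.5 CPM in WT, with no overlap of the groups, and its log2 fold change of 0.86 did not pass (edgeR adjusted p = 0.114). Col5a1 had a log2 fold change of 0.71 (edgeR adjusted p = 0.249) and Col1a2 of 0.43 (edgeR adjusted p = 0.448). At 12 months 3 of 23 did (13.04%, beside 5.41%). Col3a1 had 66.5, 86.2 and 45.1 CPM against 210, 133 and 147 CPM, again with no overlap, from 15, 78 and 6 UMIs against 159, 50 and 46. Its log2 fold change of -1.23 (SE 0.28) had an edgeR adjusted p of 0.194. Col23a1 followed at -0.89 (edgeR adjusted p = 0.312) and Col8a1 at 0.77 (edgeR adjusted p = 0.731).

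In endothelium-like nuclei only Col4a1 and Col4a2 had the counts to be tested. At 12 months Col4a1 had 211, 131 and 298 CPM in 3xTg-AD and 337, 494 and 318 CPM in WT, without overlap. The log2 fold change was -0.85 (edgeR adjusted p = 0.833), and that of Col4a2 was -0.88 (edgeR adjusted p = 0.879). At 6 months the values were -0.20 and 0.42. Of 8 genes tested in pericyte-like nuclei, the smallest p at 6 months was that of Col4a4, at -0.84 (edgeR adjusted p = 0.644). In microglia-like nuclei Col27a1 had a log2 fold change of -0.49 at 12 months (edgeR adjusted p = 0.173), and in OPC-like nuclei Col18a1 of 1.17 (edgeR adjusted p = 0.0780). These classes had 32 to 86 nuclei (endothelium-like and pericyte-like), 77 to 317 (microglia-like) and 258 to 587 (OPC-like) in a library, and none of these differences passed the adjustment over all genes. At 12 months an unadjusted edgeR p under 0.05 was found for 2 of 2 endothelium-like genes (beside 5.29% of all genes) and 0 of 8 pericyte-like ones (5.72%). It was found for 1 of 4 in microglia-like (9.64%) and 2 of 14 in OPC-like nuclei (7.74%).

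Whether the genotype difference changed from 6 to 12 months, and whether 12-month libraries differed from 6-month ones, was tested over all 12 libraries in 13 classes and 269 pairs. For the change of the genotype difference, edgeR called 0 pairs, beside 0.0475% of the pairs of all genes (0.0244% higher and 0.023% lower). An unadjusted p under 0.05 was found for 60 pairs (22.3%, beside 9.68% for all genes), and DESeq2 called 10, beside 0.534% of all pairs. Without 3xTg-AD replicate 10 the count was 22, and without WT replicate 3, 8 or 12 it was 6, 4 or 2. Closest to a call were Col17a1 in inhibitory neuron-like nuclei (log2 2.47, edgeR adjusted p = 0.0637), Col6a1 in the same nuclei (log2 2.40, edgeR adjusted p = 0.0727) and Col6a3 in striatal medium spiny neuron-like nuclei (log2 -4.58, edgeR adjusted p = 0.0767). For age, edgeR called 0 pairs as well, beside 0.0741% of all pairs (0.0388% higher and 0.0352% lower), with 47 pairs at an unadjusted p under 0.05 (17.5%, beside 6.69%). DESeq2 called 1, beside 0.0999% of all pairs, and with edgeR 1 pair was called without WT replicate 3, WT replicate 12 or 3xTg-AD replicate 10. Col5a3 was closest, lower at 12 months in oligodendrocyte-like nuclei (log2 -1.28, edgeR adjusted p = 0.0527) and in astrocyte-like nuclei (log2 -0.74, edgeR adjusted p = 0.183).

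Genes that make, secrete, bind and degrade collagens were taken from 6 lists of 74 genes in all. They covered hydroxylation, glycosylation and folding (18 genes), secretion (7), propeptide removal and crosslinking (13), receptors (11), degradation (12) and basement membrane partners (13). At 6 months 5 of 494 pairs were called, 2 higher and 3 lower in 3xTg-AD (1.01%, beside 0.714% of all pairs). At 12 months 17 of 480 were called, 11 higher and 6 lower (3.54%, beside 2.15%), of which 6 were receptors, 5 genes of propeptide removal and crosslinking, 2 of hydroxylation, glycosylation and folding, 2 basement membrane partners, 1 of secretion and 1 of degradation. Of these 17, 8 were in inhibitory neuron-like nuclei, and all 8 lost their call in the nuclei with at most 1 striatal marker. Itga10, a subunit of a collagen-binding integrin, did so at a fold change that was not smaller (log2 0.97, edgeR adjusted p = 0.0505, against 0.94 in the whole class), and Pcolce2, an enhancer of procollagen C-proteinase, at -0.58 against -0.69. These genes were chosen after their values were seen.

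Mrc2, a receptor that takes up collagen fragments for breakdown, was higher in 3xTg-AD microglia-like nuclei at both ages, in a class where 0.228% of genes were called at 6 and 1.51% at 12 months. At 6 months it had 133.5, 125.5 and 126.6 CPM in 3xTg-AD and 4.49, 11.1 and 12.0 CPM in WT, from 66 and 5 UMIs over the groups. The genotypes lay far apart, with a log2 fold change of 3.76 (SE 0.45, edgeR adjusted p = 0.000326) and a ratio of levels of 14.5 (counting interval 5.93 to 46.3). At 12 months it had 112.7, 135.1 and 144.5 CPM against 3.05, 5.85 and 0 CPM, from 163 and 2 UMIs. The ratio was 45.7 (counting interval 12.4 to 380), and the log2 fold change 5.31 (SE 0.50, edgeR adjusted p = 1.60e-07). The border macrophage markers in these nuclei, at 12 months, summed to 106 to 186 CPM in 3xTg-AD and 146 to 343 CPM in WT.

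Mmp15 and Mmp16, membrane-bound matrix metalloproteinases, were each called higher at 1 age in 3xTg-AD OPC-like nuclei, where 0.605% of genes were called at 6 and 0.756% at 12 months. Mmp15 had 173, 162 and 206 CPM at 12 months in 3xTg-AD and 66.3, 67.6 and 71.8 CPM in WT, higher throughout by a log2 of 1.41 (SE 0.13, edgeR adjusted p = 3.80e-07). At 6 months it had 174.8, 136.4 and 128.6 CPM against 144.0, 138.5 and 140.2 CPM, and the groups overlapped. The change of the genotype difference with age passed for Mmp15 (log2 1.33, SE 0.18, edgeR adjusted p = 0.000519), the only pair of these lists to do so, in a class where 0.0629% of genes did. Mmp16 was called at 6 months, with 2092.5, 2032.6 and 1845 CPM against 1616, 1489 and 1368 CPM (log2 0.45, edgeR adjusted p = 0.00603), and at 12 months had a log2 fold change of 0.23 that did not pass (edgeR adjusted p = 0.820).

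The other calls at 6 months were lower in 3xTg-AD. P3h3, which takes part in hydroxylation of collagen chains, had 35.5, 29.7 and 32.4 CPM in astrocyte-like nuclei against 54.4, 48.9 and 59.6 CPM in WT. It was lower in every 3xTg-AD library (log2 -0.73, edgeR adjusted p = 0.0111). In excitatory neuron-like nuclei (1.13% called), Ctsk, a protease that cuts the triple helix, had a log2 fold change of -0.86 (edgeR adjusted p = 0.0385) and Timp4, an inhibitor of metalloproteinases, of -0.69 (edgeR adjusted p = 0.0400). Without WT replicate 7, Mrc2 and P3h3 kept their 6-month calls and Mmp16, Ctsk and Timp4 did not (edgeR adjusted p = 0.0527, 0.109 and 0.0928). At 12 months the next smallest p among higher genes after Mrc2 and Mmp15 was that of Adamts3, which removes the amino propeptide of fibrillar procollagens, in inhibitory neuron-like nuclei (log2 1.93, edgeR adjusted p = 0.0174). With at most 1 striatal marker it had a log2 fold change of 0.28 and was not called (edgeR adjusted p = 0.431). It was also called higher within striatal medium spiny neuron-like nuclei at 12 months, with 381, 411 and 304 CPM in 3xTg-AD against 44.0, 194 and 57.9 CPM in WT (log2 2.04, edgeR adjusted p = 0.0350). Among lower genes the smallest were Adgrg1, an adhesion receptor that binds type III collagen, in striatal medium spiny neuron-like nuclei (log2 -1.25, edgeR adjusted p = 0.0318), and Lama3, a laminin chain, in striatal medium spiny neuron-like (log2 -2.06, edgeR adjusted p = 0.0359) and inhibitory neuron-like nuclei (log2 -0.94, edgeR adjusted p = 0.0371). With at most 1 striatal marker the latter was -0.37 and not called (edgeR adjusted p = 0.666). For age, P3h4, a partner of P3h3, was called higher at 12 months in oligodendrocyte-like nuclei, where 0.335% of genes were called (log2 0.44, SE 0.09, edgeR adjusted p = 0.0441). It was called in 2 of 12 fits that left out a library and not under the stricter gate (edgeR adjusted p = 0.0650).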

How the data were processed

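Nuclei of 12 libraries, 3 for each genotype and age, were analysed from the UMI counts per gene and nucleus as deposited by the authors. Per the labels, reads were aligned to mm10 with Cell Ranger 6.1.1. Whether intronic reads were counted is not given in the sources used here. The deposited matrices precede the authors' removal of free RNA, which was not repeated here. Of 185643 barcodes, 184956 with 500 to 10000 genes, at most 5% mitochondrial UMIs and a complexity above 0.8 were retained. Totals of 79177051 to 128323908 UMIs per library gave median depths of 4345 to 6698.5 UMIs per nucleus.

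A nucleus was assigned to a non-neuronal class with at least 4 of its 8 markers detected and neuronal markers under 0.6% of its UMIs. Neurons had at least 5 neuronal markers and a share of 0.6% or more. Both had at most 3 markers of any other non-neuronal class and fewer than 4 of border macrophages. Excitatory and inhibitory neurons had UMIs of their own transmitter genes and none of the other's. Subtypes had at least 4 markers of 1 subtype panel only, and some of these panels held fewer than 8. No gate held a collagen gene. The gate limits were set after the marker distributions were seen. The collagen genes, gene lists and tests were chosen with earlier results of these data known. Nuclei that fit no class (9.65%) were left out. A further 25512 neuron-like nuclei (13.8%) without a clear transmitter entered neither the excitatory nor the inhibitory class, could enter the glutamatergic subtype gates, and count in the share of UMIs in neurons.

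The counts of a class were added up within each library and compared with edgeR 4.0.16 (R 4.3.3; TMM, filterByExpr, quasi-likelihood F test, Benjamini-Hochberg adjustment over all genes of a class), where every library had at least 10 nuclei. The SE is the fold change over the square root of F. The fits were tested on simulated data with 200 changed genes. For the 12-month genotype difference, 2-fold changes were recovered at 37.9% in endothelium-like, 48.3% in fibroblast-like, 81.8% in astrocyte-like and 82.8% in inhibitory neuron-like nuclei. For 1.5-fold changes the values were 3.28%, 7.58%, 25.8% and 30.3%, and for 4-fold changes 94.4%, 98.2%, 100% and 100%. Most smaller changes in the first 2 classes would thus be missed. CPM are UMIs per 1000000 UMIs of the class and library. Detection shares have exact 95% Clopper-Pearson intervals for counting error only. All collagen genes are named once, every called one with its values, and otherwise up to 3 with the smallest p. Of pathway genes, all calls are named where there are at most 5, otherwise 3 in each direction.

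Alternatives were DESeq2 1.42.0, RLE size factors, no low-count filter, a stricter gate (at least 5 markers), removal of the 6.79% of nuclei that Scrublet (scanpy 1.11.5, expected rate 8%) called doublets, which were otherwise kept, all 12 libraries in 1 fit and each library left out in turn. Gene coordinates are from GENCODE M21 on GRCm38 and promoter windows from RefSeq on GRCm38.p6.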

Additional observations from a re-analysis of the deposited data

Results flagged for a closer look

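The genotype difference of Mmp15, a membrane-bound matrix metalloproteinase, in OPC-like nuclei was larger at 12 than at 6 months by a log2 of 1.33 (SE 0.18, edgeR adjusted p = 0.000519, interaction of genotype and age over 12 libraries). It drew attention because the test of the difference between the ages itself passed. At 12 months the 3xTg-AD libraries had 173, 162 and 206 CPM and the WT libraries 66.3, 67.6 and 71.8 CPM, and at 6 months they had 174.8, 136.4 and 128.6 against 144.0, 138.5 and 140.2 CPM. The 12-month WT libraries were thus the low ones. Groups of 3 libraries were too small for a test of single outlying samples.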

How the results depend on the processing

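No direction was reversed among the 25 collagen and 24 pathway calls under any alternative. Beside the 8 collagen pairs called at 6 months, 21 were called with no filter on low counts, 13 with DESeq2 and 2 to 10 when a library was left out. Beside the 17 at 12 months, the values were 50, 30 and 0 to 40, and 9 with inhibitory nuclei limited to at most 1 striatal marker, an alternative chosen after seeing the data. For the change of the genotype difference, with 0 called, they were 22 with no filter, 10 with DESeq2 and 0 to 22 when a library was left out. For age, with 0 called, they were 11 with no filter, 1 each with the stricter gate, with doublets removed and with DESeq2, and 0 to 1 when a library was left out. Apart from DESeq2, the share of all genes called in these alternatives is not given, here or above. All 8 and all 17 calls were among those made by DESeq2 and with no filter. The number of collagen genes highest in fibroblast-like nuclei was 14 to 16, while 37 of 44 genes kept their highest class under the stricter gate and 40 to 44 when a library was left out. Of the collagen calls, 10 were kept in every alternative that left out no library and gave them a value. These include Col17a1 in inhibitory neuron-like nuclei, which fell to the low-count filter with at most 1 striatal marker, and the 6 striatal pairs at 12 months, which the stricter gate did not test. Of the pathway calls, 4 were kept in every alternative that gave them a value, among them Mrc2 at 6 months, for which DESeq2 gave no adjusted p. The cause of these changes was not tested.

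With 3 libraries in a group, the p-values measure the spread between mice. Endothelium-like, pericyte-like and Sst interneuron-like nuclei numbered under 100 in each library. Free RNA was not removed, gates were set by marker counts, and 44.5% of fibroblast-like nuclei lay at the cut. No paired analysis was possible because each replicate number stands for 1 mouse of 1 group and no number is shared between groups.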
